A study of Homo sapiens with 8 samples.

Results

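UPF1, SMG1, SMG5 and CNOT4 encode mRNA decay factors, and they were taken by gene name from the authors' deposited table of N6-methyladenosine (m6A) change after decitabine. They carried 6 of its 4626 features and 4 of its 3114 gene names. m6A is a methyl mark on adenosines of RNA. The assay was MeRIP-seq, in which fragmented RNA is enriched with an antibody to m6A and sequenced beside unenriched input. The cells were HL-60, an established human promyelocytic leukaemia line, labelled as wild type in both arms. One arm received 100 nM decitabine, a deoxycytidine analogue that depletes DNA methyltransferases, at 0, 24 and 48 hours. The other received DMSO, and both were taken at 72 hours. Each arm had 2 cultures, and each culture an m6A and an input library, which makes 8 libraries in 4 groups of 2.

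The authors' deposited table gives a single log ratio and p-value per feature, with no value per library. No replicate error can therefore be attached to any ratio here, and the depth behind each ratio is unknown. The log ratio was read as a natural log. Its exponential is given as a fold of the larger arm over the smaller, and its sign is stated in words. Which arm is the numerator is not recorded. The table is named for decitabine, so a negative ratio probably means less m6A signal with decitabine than with DMSO. The labels do not say how input entered the ratio, so a change in m6A and a change in RNA level cannot be told apart. Every listed feature had passed a threshold, with p-values up to 0.00455 and absolute log ratios from 0.501, so being listed is not itself a result for these genes.

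Nonsense-mediated decay removes mRNAs whose translation ends too early and also tunes many normal transcripts. The helicase UPF1 gathers at such a stop codon, the kinase SMG1 phosphorylates it, and SMG5 binds the phosphorylated form and brings in decay enzymes. CCR4-NOT is the main cytoplasmic deadenylase, which shortens the poly(A) tail ahead of decapping and exonuclease digestion. CNOT4 is a RING-type ubiquitin ligase named for this complex. It is not a nuclease, and in human cells it is not a stable subunit. m6A itself is tied to these routes, since the reader YTHDF2 can bring methylated mRNA to CCR4-NOT.

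The 6 features were 4 negative and 2 positive, with the negative ones the larger. Over all listed features 43.7% were negative and 56.3% positive. UPF1 and SMG5 were negative at every listed feature, SMG1 was positive, and CNOT4 held 1 feature of each sign. The positive ratios of SMG1 and CNOT4 lay below the median positive feature of this table, which stood at 10.1-fold. UPF1 and SMG5 each held a feature well above the negative median of 3.95-fold, but the other SMG5 feature lay below it, at 3.45-fold. Ratios that were multiples of 0.5 made up 30.6% of all features but 13.1% of negative ones, so they were commoner among positive features. The positive features of SMG1 and CNOT4 had no such ratio. The positive median without such ratios was not computed, so how small these 2 ratios were among the rest was not assessed.

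**Figure D1:**
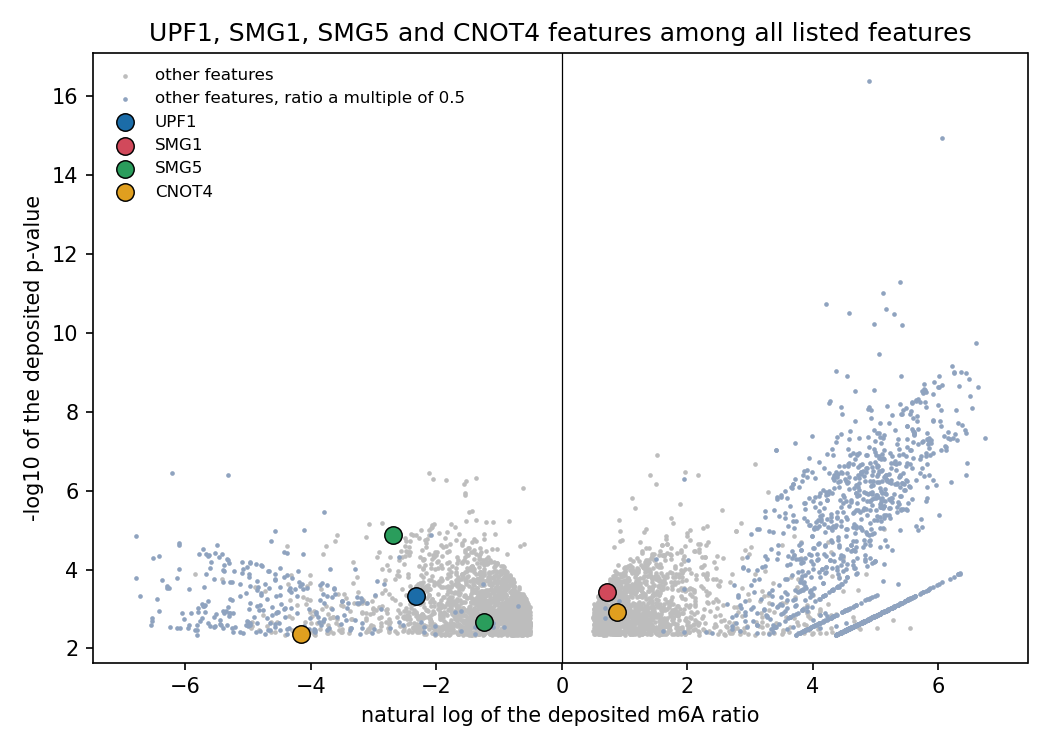
All listed features by the natural log of the deposited ratio (x axis) and -log10 of the deposited p-value (y axis), with the 6 features of UPF1, SMG1, SMG5 and CNOT4 as large points. A single feature with a log ratio above 10 lies outside the axis. The 2 positive points sit close to the smallest ratios listed, and the CNOT4 point at -4.15 lies at the lower edge of the p-values.

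UPF1, the helicase at the centre of nonsense-mediated decay, had a single feature (ENSG00000005007.13, hg38 chromosome 19, 18846042 to 18846091, plus strand). The authors' deposited table gave it a natural log ratio of -2.32, a 10.2-fold difference between the arms (p = 0.00046). Of the 2022 negative features in that table, 469 (23.2%) had a ratio at least as large, and 37.8% of all features had a p-value at least as small. The feature began 14083 nt from the 5′ end of the 36272 nt gene span and ended 22139 nt from its 3′ end. UPF1 was thus among the 69.6% of listed genes with 1 feature.

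SMG1, the kinase that phosphorylates UPF1, was the one nonsense-mediated decay gene of the 4 with a positive ratio. Its feature (ENSG00000157106.17, chromosome 16, 18809307 to 18809356, minus strand) had a natural log ratio of 0.73, or 2.07-fold, in the authors' deposited table (p = 0.00036). Of the 2604 positive features, 2377 (91.3%) had a ratio at least as large. That share includes ratios that are multiples of 0.5, which were commoner among positive than among negative features. The SMG1 feature ended 4447 nt short of the 3′ limit of a 121549 nt span, at 96.3% of its length from the 5′ end. RefSeq holds 7 SMG1 pseudogenes on chromosome 16, of which 0 were named in the table. The labels do not say how reads common to SMG1 and these copies were counted, so the SMG1 ratio is uncertain in that respect.

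SMG5, the adaptor that binds phosphorylated UPF1, had 2 negative features and the smallest p-value of the 4 genes. The leading one (ENSG00000198952.8, chromosome 1, 156266129 to 156266228, minus strand) covered 100 nt. The authors' deposited table gave it a natural log ratio of -2.69, or 14.7-fold (p = 1.3e-05). Of the negative features, 19.2% were at least as large, and 12.5% of all features had a p-value at least as small. It lay at 59.9% of the 42293 nt span, 16905 nt from the 3′ end. Of the 607 listed genes with 2 features, 121 (19.9%) were negative at both, as SMG5 was.

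The other SMG5 feature was spliced. It covered 21 nt at 156282607 to 156282627 and 29 nt at 156279006 to 156279034, with 3572 nt between the blocks. Features written as several blocks made up 4.19% of the table. The authors' deposited table gave this one a natural log ratio of -1.24, or 3.45-fold (p = 0.0021). Of the negative features, 57.4% were at least as large, and 72.8% of all features had a p-value at least as small. The spliced feature lay 12777 nt upstream of the leading feature in the direction of transcription. The ratios of both SMG5 features differed by 1.45 on the natural log scale. RefSeq lists 2 start sites for SMG5, and the 5′ end of the spliced feature lay 198 nt downstream of the internal one and 8889 nt downstream of the outer one. The bases around the internal start are shown because this is the closest that any feature of the 4 genes came to an annotated start (RefSeq, GRCh38.p14, minus strand, chr1:156282796-156282925). Capitals mark the 30 bases from the start onward, and the 100 bases before it are in lower case.
SMG5 internal start: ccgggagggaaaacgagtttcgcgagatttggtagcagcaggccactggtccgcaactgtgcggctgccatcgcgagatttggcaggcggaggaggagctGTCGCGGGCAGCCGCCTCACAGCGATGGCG
The spliced feature itself begins beyond these bases, and no sequence of it or of the other member features was read here.

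CNOT4, the ubiquitin ligase, held the largest ratio of the 6 and also the weakest p-value. By p-value it was led by a positive feature (ENSG00000080802.18, chromosome 7, 135395694 to 135395743, minus strand). This had a natural log ratio of 0.88, or 2.41-fold, in the authors' deposited table (p = 0.0012). The other feature (135363045 to 135363094) had a natural log ratio of -4.15, or 63.5-fold, in the authors' deposited table (p = 0.0044). Of the negative features, 10.2% had a ratio as large, whereas 98.4% of all features had a p-value at least as small. The p-value was weak even for its size, since the 206 negative features of at least that ratio had a median p-value of 0.00079 in the authors' deposited table. The 63.5-fold ratio was a whole multiple of 0.5 to a relative tolerance of 1e-08. Such ratios made up 30.6% of the table and 13.1% of its negative features, and 181 of those 206. Very small whole-number totals in one arm would give such ratios, which was not tested because the totals are unknown here. None of the other 5 member features had such a ratio.

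The CNOT4 features were 32599 nt apart in the genome and 5.03 apart on the natural log scale. The negative one stood 1250 nt from the 3′ limit of the 148308 nt span, and the positive one 33899 nt from it. Opposite signs within a gene were common in this table, at 47.1% of the genes with 2 features. In 38.3% of the features that lay inside their gene, the position was in the last 10% of the span. Of the 6 member features, the SMG1 feature and the negative CNOT4 feature lay there, while those of UPF1 and SMG5 lay between 25.3% and 59.9% of the span, against a median of 81.8% over the table. Spans include introns, and exon, intron and UTR boundaries were not annotated here. At the 6 positions 0 other RefSeq genes overlapped, and 0 features under other names lay in the 4 gene spans.

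**Figure D2:**
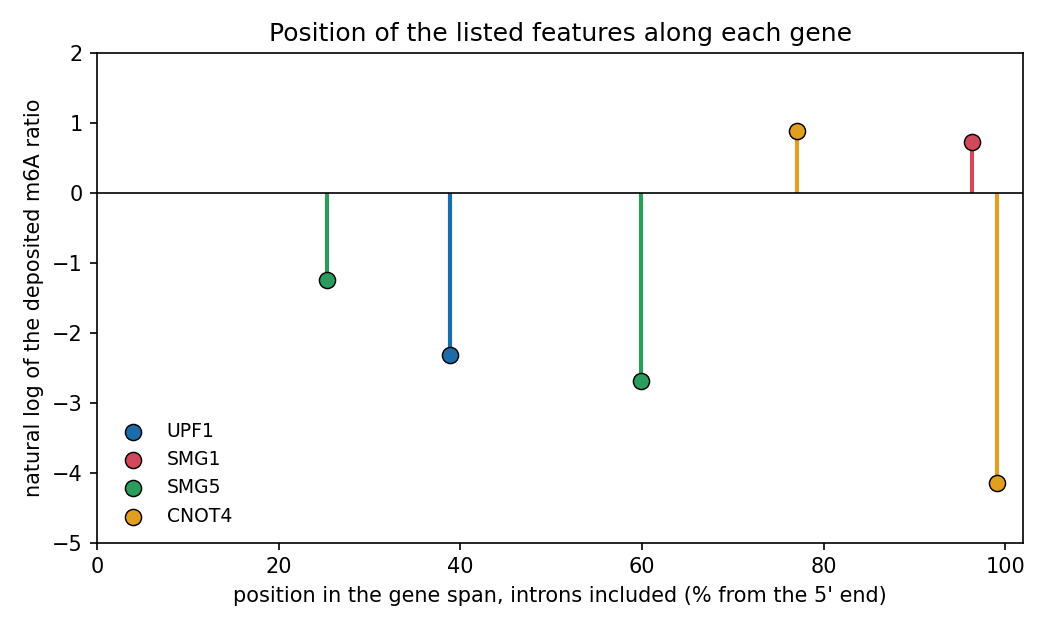
Each listed feature of UPF1, SMG1, SMG5 and CNOT4 by its position in the gene span (x axis, percent from the 5′ end, introns included) and the natural log of the deposited ratio (y axis). The UPF1 feature and both SMG5 features are negative and lie between 25.3% and 59.9% of the span, and the CNOT4 features have opposite signs at 77.1% and 99.1%.

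Most other listed genes of nonsense-mediated decay were negative by their leading feature, as UPF1 and SMG5 were. Of 18 genes in the list, 9 had a listed feature, against 13.5% of all RefSeq protein-coding genes. Genes that HL-60 cells do not express cannot be listed, and expression was not measured in this table. Each gene was taken by its leading feature, that of lowest p-value. By that feature 7 of the 9 were negative and 2 positive, against 41.1% negative over all listed genes. Their median natural log ratio was -1.10, against 0.93 over all listed genes. Without ratios that are multiples of 0.5, 7 of 8 were negative, against 54.7% of all listed genes, and the medians were -1.11 and -0.63. Leaving out UPF1, SMG1 and SMG5, 5 of the remaining 6 were negative, with a median of -0.87. With p-values under 0.001 as the limit, 5 genes were left, 3 negative and 2 positive. The list was itself drawn up with earlier results of these data known. No test was made of this list, and the values describe a single comparison.

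Bridging factors, an endonuclease and a kinase regulator were among the negative genes. The bridging factors that link UPF1 to the exon junction complex were UPF2, led by a 1.85-fold feature (p = 0.00048), and UPF3B, led by a 1.90-fold feature (p = 0.0017) in the authors' deposited table. In the authors' deposited table UPF2 held a further negative feature of 3.02-fold, and UPF3B a negative one of 17.75-fold and a positive one of 3.58-fold. UPF3B was the only gene of the 9 with both signs. SMG6, the endonuclease that cuts near the stop codon, was negative at 3.06-fold (p = 0.0037) in the authors' deposited table. SMG8, which binds and restrains the SMG1 kinase, was negative at 3.01-fold in the authors' deposited table. Of the 9 genes of this list with a UPF or SMG symbol, 8 were listed, against 13.5% of all RefSeq protein-coding genes. SMG1 alone of these was positive by its leading feature. Over all listed genes 41.1% were negative, or 54.7% without multiples of 0.5. This grouping by symbol was not among the planned lists, and it leaves out the other positive gene of the full list. That gene was PNRC2, which links UPF1 to decapping. It stood at 133-fold (p = 7.3e-09) in the authors' deposited table, a ratio that was a multiple of 0.5.

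UPF3A, the paralogue of UPF3B, was negative at 8.41-fold (chromosome 13, 114291690 to 114291739, plus strand, p = 0.0011) in the authors' deposited table. It is the one feature of the decay lists whose bases could be read, because it falls in the RefSeq start window of another locus. That locus, LOC124903222, starts inside the UPF3A span on the same strand. They are printed in lower case to show what such a feature holds (RefSeq, GRCh38.p14, chr13:114291690-114291739).
UPF3A feature: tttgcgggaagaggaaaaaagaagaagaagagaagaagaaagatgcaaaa
The letters GAC and AAC, the core of the m6A consensus, were searched on both strands with GGAC and GGACT, which contain GAC, and had 0 matches. Among all listed features, 10 of this width could be read in the same way, of which 3 held GAC and 4 held AAC on the transcript's strand, 3 held GGAC and 1 held GGACT. This says only that these letters are not in this window. The pseudogenes UPF3AP1 and UPF3AP2 were also listed in the authors' deposited table, both negative, at 42-fold for UPF3AP1 and 123-fold for UPF3AP2, each a multiple of 0.5, and reads shared with UPF3A cannot be told apart here.

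**Figure D3:**
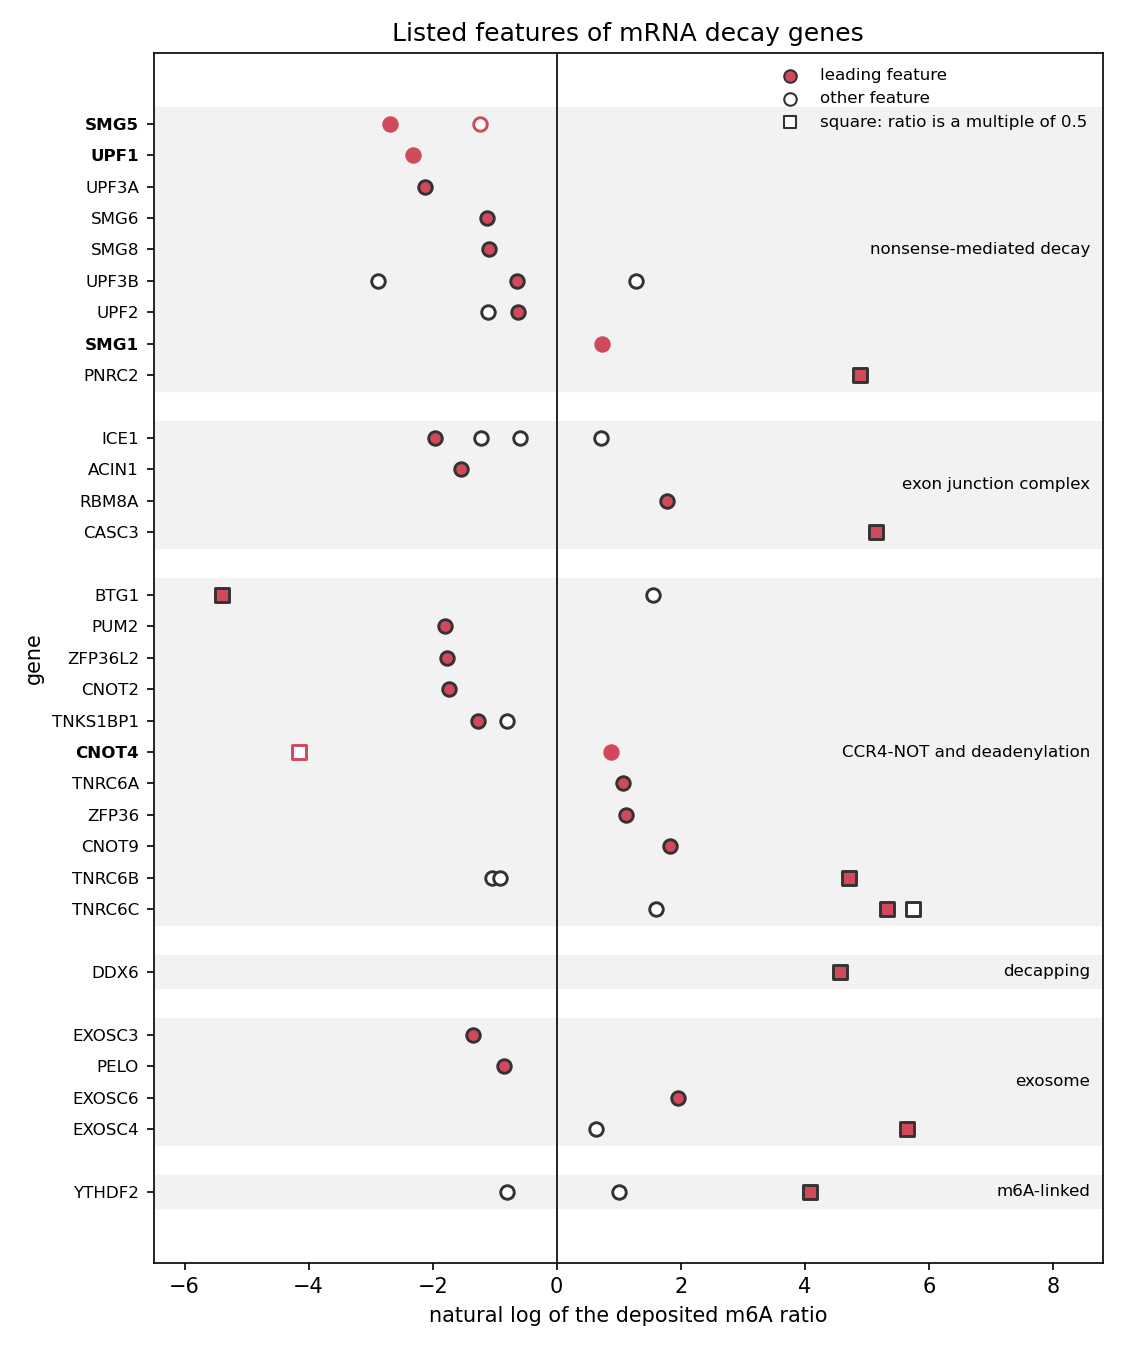
Listed features of the mRNA decay genes, 1 row per gene, by the natural log of the deposited ratio (x axis). Filled symbols are leading features, open symbols other features and squares ratios that are multiples of 0.5. Names in bold are UPF1, SMG1, SMG5 and CNOT4, and a gene of several lists is drawn once. In the nonsense-mediated decay block 7 of 9 filled symbols lie left of 0, and in the CCR4-NOT block 5 of 11.

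The exon junction complex, the mark that tells UPF1 where introns were removed, had listed genes of both signs. Of 11 genes, 5 (45.5%) were listed, against 13.5% of all RefSeq protein-coding genes, with UPF3B counted here too. By leading feature 2 were positive and 3 negative, against 41.1% negative over all listed genes, and without multiples of 0.5 the counts were 1 and 3, against 54.7% negative. Among core subunits, RBM8A was positive at 5.91-fold (p = 0.00076) and CASC3 positive at 172-fold (p = 1.8e-05), a multiple of 0.5, in the authors' deposited table. The peripheral subunit ACIN1 was negative at 4.67-fold (p = 1.1e-06) in the authors' deposited table. ICE1, which aids the loading of UPF3B, was led by a negative 7.11-fold feature (p = 0.00019) in the authors' deposited table. Its other features there were negative at 3.39-fold and 1.82-fold and positive at 2.03-fold.

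The CCR4-NOT and deadenylation list, to which CNOT4 belongs, held genes of both signs. Of 29 genes, 11 (37.9%) were listed, against 13.5% of all RefSeq protein-coding genes. By leading feature 6 were positive and 5 negative (45.5%), against 41.1% negative over all listed genes. The median natural log ratio was 0.88, against 0.93. Without multiples of 0.5 these counts and this median stayed the same, against 54.7% negative and a median of -0.63 over all listed genes. The median thus stood near that of the whole table only with those ratios kept in. The genes behind the unchanged counts differed. Without those ratios BTG1 turned from negative to positive by leading feature, and TNRC6B from positive to negative. Among subunits of the complex, CNOT2, of its NOT module, was negative at 5.64-fold (p = 0.0039), 883 nt from its 3′ end, and CNOT9 positive at 6.22-fold (p = 0.0012), 2445 nt from its 3′ end, in the authors' deposited table. In the authors' deposited table TNKS1BP1, a protein that associates with the complex, was negative at 3.56-fold (p = 0.0024) and again at 2.23-fold. The 3 TNRC6 proteins recruit the complex in microRNA silencing, and all were led by positive features, TNRC6B only with multiples of 0.5 kept in. TNRC6A stood at 2.91-fold, TNRC6B at 112.5-fold and TNRC6C at 204-fold by the authors' deposited table, the last 2 being multiples of 0.5. The further features of TNRC6B in the authors' deposited table were negative, at 2.84-fold (p = 7.3e-05) and 2.51-fold (p = 0.0023), and those of TNRC6C positive, at 315-fold, a multiple of 0.5, and 4.98-fold.

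RNA-binding adaptors of the same list went both ways. The AU-rich element binding protein ZFP36 was positive at 3.04-fold (p = 0.0023) and its relative ZFP36L2 negative at 5.87-fold (p = 0.00097) in the authors' deposited table. PUM2, a Pumilio repressor, was negative at 6.06-fold (p = 6.4e-05) in the authors' deposited table. BTG1, an antiproliferative cofactor of the deadenylases, was led by a negative 219-fold feature (p = 0.0012), a multiple of 0.5, and held a positive 4.71-fold one in the authors' deposited table. Like CNOT4, BTG1 and TNRC6B had features of both signs, which makes 3 of the 11 genes. Only genes with several features can show both signs. The 11 include genes with a single feature, so 3 of 11 is not comparable with the 47.1% among all listed genes with 2 features.

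The later decay steps were represented by DDX6 and a few exosome-related genes. Of 20 decapping and 5′ to 3′ decay genes, 1 was listed, against 13.5% of all RefSeq protein-coding genes. This was DDX6, a helicase that activates decapping, positive at 97-fold (p = 0.0032), a multiple of 0.5, in the authors' deposited table. Of 18 exosome and 3′ to 5′ decay genes, 4 (22.2%) were listed, 2 of each sign, against the same 13.5% listed and 41.1% of all listed genes negative. The exosome subunit EXOSC3 was negative at 3.85-fold and the ribosome rescue factor PELO at 2.34-fold, while EXOSC6 was positive at 7.08-fold and EXOSC4 was led by a positive 281-fold feature, a multiple of 0.5, in the authors' deposited table. Of 7 genes that link m6A to decay, UPF1 and YTHDF2 (28.6%) were listed, against the same 13.5%. They had opposite signs by leading feature, against 41.1% negative over all listed genes. YTHDF2 had features of 59-fold, a multiple of 0.5, and 2.75-fold (positive) and 2.23-fold (negative) in the authors' deposited table. Without multiples of 0.5 both genes were negative, against 54.7% of all listed genes.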

How the data were processed

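The submitters' processing notes name STAR 2.7.3a and the build hg38. The scoring tool, its test and its use of input are stated neither there nor in the labels. The deposited table is the authors' own comparison, with a log ratio and a p-value per feature that is not marked as adjusted. The deposited log ratio was read as a natural log, since its exponential was a multiple of 0.5 for 1415 features, against 0 in base 2. Positions are 1-based on hg38 with both ends included. Gene spans, start sites and sequences came from RefSeq GRCh38.p14, the same primary assembly. The 10 chromosome Y features were left out of summaries by gene. Library depth and replicate spread are unknown here, and the planned count-based fit could not be run. No test was added to the authors' values. The 4 genes, the 6 decay lists and the naming rule (every feature of the 4 genes, and every listed gene of the lists by leading feature) were chosen with earlier results of these data known. A gene of the nonsense-mediated decay list is not reported here and was left out of that list's counts and medians. Python 3.11.15, pandas 2.3.3 and numpy 2.4.6 were used, and the scripts were tested on simulated data.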

Additional observations from a re-analysis of the deposited data

How the results depend on the processing

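No paired analysis was possible because the table holds no value per library, and for the same reason no replicate could be left out. CNOT4 changed sign with the choice of feature, from 0.88 on the natural log scale by p-value to -4.15 by largest ratio and -1.63 by the median of its features. SMG5 moved to -1.96 by the median. Read in base 2, the folds would be 4.99 for UPF1, 1.66 for SMG1, 6.45 and 2.36 for SMG5, and 1.84 and 17.8 for CNOT4. With p under 0.001, 1 positive and 2 negative member features remained. Without multiples of 0.5, positive leading features numbered 1 among nonsense-mediated decay genes, 1 among exon junction genes, 0 among decapping genes and 0 among m6A-linked genes, where 2 were negative. With p under 0.001, 5 nonsense-mediated decay genes were left, of which 3 were negative, 4 CCR4-NOT genes, 2 of each sign, 3 exosome genes, of which 1 was negative, and 0 decapping genes. The counts of negative genes were added after seeing the data. The other 35 alternative values stayed within 1.5 times or were equal. The unknown depth limits all of the ratios.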
